A study of Mus musculus with 4 samples.

Results

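Fibroblast growth factors (Fgfs) and their receptors were followed through RNA sequencing of sciatic nerves from control mice and Zeb2 cKO mice at postnatal day 7. The set holds 10 genes chosen by name as Fgf family members found in nerve, out of 21965 genes with a usable value. They are the ligands Fgf1, Fgf2, Fgf5, Fgf7, Fgf10 and Fgf18, the signalling receptors Fgfr1, Fgfr2 and Fgfr3, and Fgfrl1, a receptor-like protein without a kinase domain. The 10 genes have 18 transcript rows in the tables.

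Both groups were of a mixed strain background and were labelled by genotype as Control or Zeb2 cKO, a conditional knockout of the zinc finger transcription factor Zeb2. The labels name neither the Cre driver nor the deleted exons, and each sample was RNA from pooled nerves. The labels list 2 samples per group, while 1 table per group was analysed, named in the labels of both samples of its group and not tied to either. Each table gives 1 value per transcript and is treated here as 1 library, so no value below has a replicate and no test between the genotypes was possible. Control nerve and Zeb2 cKO nerve below mean these 2 libraries, and differences are given by their size.

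Secreted Fgfs bind, together with heparan sulfate chains, to the extracellular Ig-like domains of receptor tyrosine kinases. The activated receptors signal through the adaptor Frs2 to Ras and ERK, and ERK in turn raises feedback inhibitors of the Sprouty and Spred families. In peripheral nerve the pathway is known for its action on Schwann cells and fibroblasts and for its response to injury. The comparison asks how the transcripts of this pathway differ in the nerve when Zeb2 is deleted.

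Values are FPKM, fragments per kilobase of transcript normalised to the mapped fragments of the library, so levels may be compared between genes. The control library held an estimated 29729619 reads and the Zeb2 cKO library 20288183. Zeb2 itself was at 34.4 FPKM in control nerve and 19.5 FPKM in Zeb2 cKO nerve, 1.76-fold lower (95% counting interval 1.70 to 1.82), the direction of the labels. Counting intervals come from estimated reads and leave out the spread between animals and libraries. A gene was called measured at a mean of at least 1 FPKM over both libraries, and 2-fold apart by log2((FPKM Zeb2 cKO + 1)/(FPKM control + 1)). Of 12903 measured genes, 8.59% were 2-fold or more higher in Zeb2 cKO nerve and 6.25% were 2-fold or more lower, and the median log2 ratio was 0.18. Of all genes that were 2-fold apart, 57.9% were higher, and 46.2% were higher when the Zeb2 cKO values were rescaled so that the median gene stood near equality.

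Marker lists of cell types of nerve and of skeletal muscle did not have the same sums in the 2 libraries. Sox10, which marks Schwann cells at all stages, was at 139 and 69.2 FPKM, present in both. Myelin genes with a usable value summed to 25565 FPKM in control nerve and 1233 FPKM in Zeb2 cKO nerve, with 7 of 7 at least 2-fold lower. Skeletal muscle markers summed to 7289 and 884 FPKM, with 10 of 10 lower. Fibroblast markers summed to 5699 and 9429.9 FPKM, with 6 of 10 higher, and perineurial markers to 105 and 297 FPKM, with 5 of 7 higher. Adipocyte markers summed to 215 and 523 FPKM, with 4 of 4 measured members higher. Pericyte and smooth muscle markers summed to 155 and 247 FPKM, with 2 of 6 higher and 0 lower. Endothelial markers (139 and 229 FPKM) and macrophage markers (46.6 and 48.8 FPKM) had no member 2-fold apart. In none of these lists was a marker at 0 in either library. In bulk tissue, fewer cells of a type and less RNA per cell cannot be told apart. Whether the pools held unlike amounts of muscle tissue was not tested, nor was the part of these shifts in the values below.

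Of the 10 genes, 8 were measured. The receptor Fgfr1 was 2-fold or more higher in Zeb2 cKO nerve, the ligand Fgf1 was 2-fold or more lower, and the other 6 lay within 2-fold. The counts of 1 of 8 in each direction, and 2 of 8 in either, are close to the background shares of 8.59%, 6.25% and 14.8%, so they do not set the family apart from other genes. The median log2 ratio of the 8 was 0.21, beside 0.18 over all measured genes. Fgf5 and Fgf10 stayed below 1 FPKM on average and are described by their values.

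**Figure D1:**
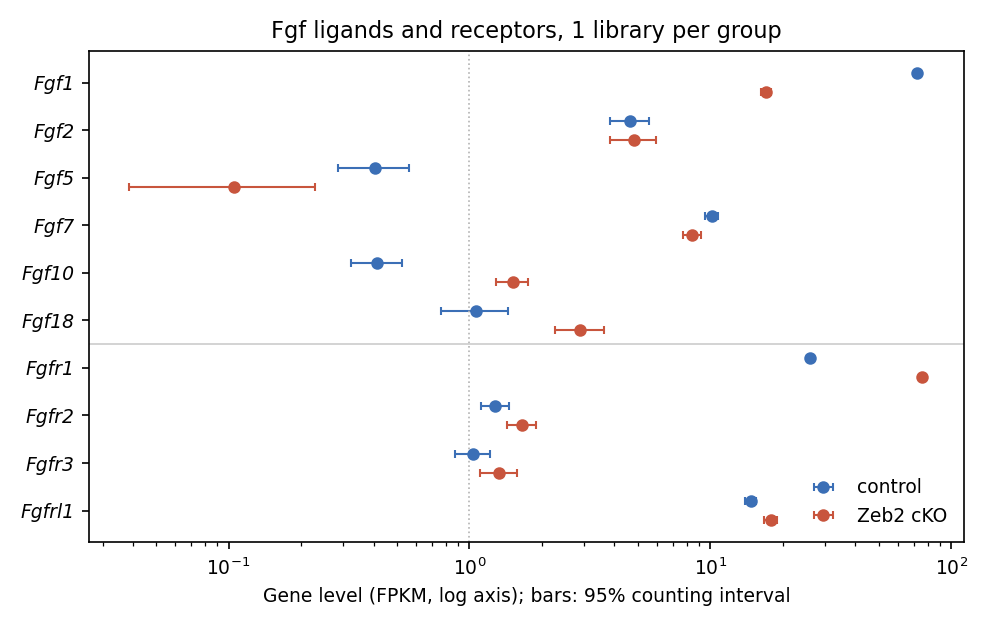
Level of each gene in FPKM on a log axis in control nerve (blue) and the Zeb2 cKO library (red), with 95% counting intervals as bars and a dotted line at 1 FPKM. Fgf1 leads the control library at 72.0 FPKM and Fgfr1 leads the Zeb2 cKO library at 75.8 FPKM.

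The 10 genes stood in a different order in the 2 libraries. In the control library Fgf1 was highest, followed by Fgfr1, Fgfrl1, Fgf7 and Fgf2. Below these, Fgfr2, Fgf18 and Fgfr3 lay between 1.04 and 1.28 FPKM with overlapping counting intervals, and the levels of Fgf10 and Fgf5, at 0.415 and 0.407 FPKM, could not be separated either. In the Zeb2 cKO library Fgfr1 was highest, and Fgfrl1 and Fgf1 came next with overlapping intervals (16.8 to 18.9 FPKM and 16.2 to 17.9 FPKM). Fgf7, Fgf2 and Fgf18 followed, and Fgfr2, Fgf10 and Fgfr3 formed a group between 1.32 and 1.65 FPKM in which neighbours overlapped. Fgf5 was last. The summed level of all 10 genes was almost the same, at 132 FPKM in control nerve and 131 FPKM in Zeb2 cKO nerve, although its make-up differed.

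Fgf1, the ligand that can activate every Fgf receptor and that lacks a classical signal peptide, showed the widest difference of the 10 genes by log2 ratio. Its row lies on chromosome 18 from 38998327 to 39078353 on the mm9 build, which holds for all positions of genes given here. Fgf1 was at 72.0 FPKM in control nerve and 17.0 FPKM in Zeb2 cKO nerve, 4.22-fold lower (counting interval 4.01 to 4.45). The control value rests on about 10011 reads and the Zeb2 cKO value on about 1615. By level, Fgf1 ranked 916 among the measured genes of the control library and 4129 in Zeb2 cKO nerve. Its log2 ratio of -2.02 ranked 313 from the lowest of 12903. Myelin and skeletal muscle markers were lower in the same library, by the sums given above, and their part in the Fgf1 value was not tested. The predicted gene Gm5820 overlaps the Fgf1 span and was at 0.230 and 0.415 FPKM, so it carried little signal in either library.

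Fgf7, the keratinocyte growth factor made by connective tissue cells (chromosome 2, 125860394 to 125916921), was the second ligand by level. It was at 10.1 FPKM in control nerve and 8.42 FPKM in Zeb2 cKO nerve, 1.20-fold lower with a counting interval of 1.08 to 1.34. Fibroblast markers were higher in the same library, with a median log2 ratio of 1.08. Fgf7 lay within 2-fold, and its log2 ratio of -0.24 was below the median of all genes.

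Fgf10, its close relative that acts on the same receptor form (chromosome 13, 119503506 to 119581380), was much scarcer. It was at 0.415 FPKM in control nerve, about 68 reads, and at 1.51 FPKM in Zeb2 cKO nerve, about 168 reads. The plain FPKM ratio was 3.64-fold higher (counting interval 2.72 to 4.88). With a mean just under 1 FPKM, Fgf10 was not among the measured genes, and with the pseudocount its log2 ratio was 0.83.

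Fgf18 (chromosome 11, 33017431 to 33047400), a ligand known for skeletal growth, was at 1.07 FPKM in control nerve and 2.89 FPKM in Zeb2 cKO nerve. The plain ratio was 2.71-fold higher (counting interval 1.84 to 4.08), from about 41 and 76 reads. On the pseudocount scale its log2 ratio was 0.91, just short of 2-fold, and with a pseudocount of 0.5 FPKM in place of 1 it passed. Fgf10 and Fgf18 were thus the ligands of the set with higher plain ratios, both from low levels.

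Fgf2, basic Fgf, which like Fgf1 leaves cells without a signal peptide (chromosome 3, 37247575 to 37303752), did not differ beyond counting error. It was at 4.63 FPKM in control nerve and 4.81 FPKM in Zeb2 cKO nerve, a ratio of 1.04 (counting interval 0.775 to 1.40). The Fgf2 row is only 695 bases long, and about 114 and 81 reads support it. The next gene in the tables, Nudt6, which begins 154 bases beyond the Fgf2 row, was at 7.95 and 6.53 FPKM.

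Fgf5, known as the factor that ends hair growth (chromosome 5, 98683203 to 98706049), was among the scarcest members, with a counting interval that overlapped that of Fgf10 in control nerve. It was at 0.407 FPKM in control nerve and 0.105 FPKM in Zeb2 cKO nerve, 3.88-fold lower. About 36 and 6 reads support these values, and the counting interval runs from 1.71 to 11.9. It shares its direction with Fgf1, at a level far below it.

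By role, the summed level of the 6 ligands was 88.6 FPKM in control nerve and 34.8 FPKM in Zeb2 cKO nerve, 2.55-fold lower. Fgf1 made up 81.2% of the ligand sum in control nerve and 49.0% in Zeb2 cKO nerve. Without Fgf1 the other 5 ligands summed to 16.7 and 17.7 FPKM. Fgf7 made up 11.5% and 24.2%. Fgf10 made up 0.469% and 4.35%, and Fgf18 made up 1.20% and 8.30%. The 3 signalling receptors summed to 28.3 FPKM in control nerve and 78.8 FPKM in Zeb2 cKO nerve, 2.78-fold higher.

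**Figure D2:**
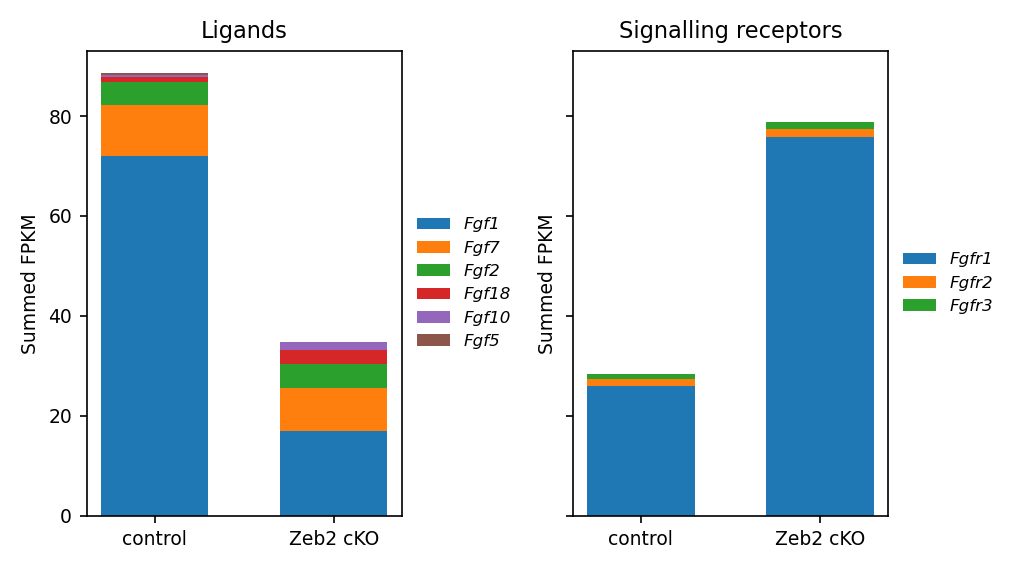
Summed FPKM of the 6 ligands (left) and of the 3 signalling receptors (right) in each library, with each gene as a coloured segment on a linear axis from 0. The ligand column is 88.6 FPKM high in control nerve and 34.8 FPKM in Zeb2 cKO nerve, and the receptor column 28.3 and 78.8 FPKM.

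Fgfr1, the receptor widely used by mesenchymal and neural cells (chromosome 8, 26629244 to 26686186), was the prevailing signalling receptor in both libraries. It was at 26.0 FPKM in control nerve and 75.8 FPKM in Zeb2 cKO nerve, 2.92-fold higher (counting interval 2.83 to 3.04), from about 4549 and 9091 reads. Fgfr1 made up 91.8% of the receptor sum in control nerve and 96.2% in Zeb2 cKO nerve. Its log2 ratio of 1.51 ranked 444 from the highest, and was 1.33 with the median gene rescaled. Fibroblast and perineurial markers were higher in the same library, as given above, and their part in the Fgfr1 value was not tested. No other gene of the tables overlaps the Fgfr1 span.

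The tables list Fgfr1 as 3 transcript rows that differ in 2 exons of the extracellular part. These exons are shown because the rows differ through them. Row lengths differ by 267 bases and by 6 bases, the same as the exon differences in the GENCODE M21 annotation. The sequences are those of GENCODE M21 transcripts, 5′ to 3′ on the plus strand, and their positions are on GRCm38 and not on the build of the tables. In the Ig I exon (chr8:25555508-25555774), which encodes the N-terminal Ig-like domain, capitals mark the 267 bases that the shortest row lacks, with 10 bases of the neighbouring exons on each side in lower case. In the next exon, which encodes the acid box (chr8:25557731-25557820), capitals mark the last 6 bases, present in the long version of the exon and absent from the short one.
Fgfr1 Ig I exon: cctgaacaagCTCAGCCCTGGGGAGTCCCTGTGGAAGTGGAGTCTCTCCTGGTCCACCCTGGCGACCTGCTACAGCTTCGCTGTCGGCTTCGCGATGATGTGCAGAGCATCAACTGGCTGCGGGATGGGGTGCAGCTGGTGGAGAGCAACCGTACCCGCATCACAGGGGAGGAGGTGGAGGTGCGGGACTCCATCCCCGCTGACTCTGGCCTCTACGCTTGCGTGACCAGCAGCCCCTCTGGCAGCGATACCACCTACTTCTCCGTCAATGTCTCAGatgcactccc
Fgfr1 acid box exon: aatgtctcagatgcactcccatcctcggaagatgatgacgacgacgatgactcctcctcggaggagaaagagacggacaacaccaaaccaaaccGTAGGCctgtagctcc
The Ig I domain and the acid box are known to restrain ligand binding by the rest of the receptor.

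All 3 Fgfr1 rows were higher in Zeb2 cKO nerve, to unequal extents. The 2 rows with the Ig I exon summed to 17.5 FPKM in control nerve and 59.9 FPKM in Zeb2 cKO nerve, 3.41-fold higher. The row without it was at 8.44 and 15.9 FPKM, 1.88-fold higher. The share of Fgfr1 without the Ig I exon was thus 32.5% in control nerve and 21.0% in Zeb2 cKO nerve. The short acid box exon was in the most abundant row, which made up 53.5% and 58.5%, and the row with both the Ig I exon and the long acid box exon made up 14.0% and 20.5%. Cufflinks assigns reads that fit several rows by likelihood, and the tables used here give no error for these shares.

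All 3 Fgfr1 rows also carry exon IIIc, the 145-base exon that ends the third Ig-like domain and sets which ligands are bound. The alternative exon IIIb of Fgfr1, 151 bases long in the annotation, is in none of the rows. For Fgfr1 the 2 forms could therefore not be compared.

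Fgfr2 (chromosome 7, 137305965 to 137410322) was near the low end of the set. It was at 1.28 FPKM in control nerve and 1.65 FPKM in Zeb2 cKO nerve, 1.29-fold higher (counting interval 1.06 to 1.56), from about 226 and 198 reads. Its log2 ratio of 0.22 was close to the median gene. Its 2 rows represent the exon IIIb form, which Fgf7 and Fgf10 bind, and the exon IIIc form, which they bind poorly. Exon IIIb is shown because it marks the receptor form of Fgf7 and Fgf10. It is from a GENCODE M21 transcript, 5′ to 3′ on the minus strand of GRCm38 (chr7:130199758-130199905), with the exon in capitals and 10 bases of the neighbouring exons in lower case.
Fgfr2 exon IIIb: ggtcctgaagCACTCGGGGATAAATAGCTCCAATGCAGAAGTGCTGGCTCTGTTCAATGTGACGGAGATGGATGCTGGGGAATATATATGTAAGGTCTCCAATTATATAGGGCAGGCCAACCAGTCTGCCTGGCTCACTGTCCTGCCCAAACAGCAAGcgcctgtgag
Exon IIIb of Fgfr2 is 148 bases long.

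The row with exon IIIb was the larger part of Fgfr2 in both libraries. It was at 0.886 FPKM in control nerve and 1.20 FPKM in Zeb2 cKO nerve, 69.4% and 72.6% of the gene. The row with exon IIIc was at 0.392 and 0.453 FPKM. The row with exon IIIb also lacks an exon of 267 bases and an exon of 78 bases that the other row has, so its share rests on reads from all of these differences and not on exon IIIb alone.

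Fgfr3 (chromosome 5, 34064373 to 34079717) had a level close to that of Fgfr2, with overlapping counting intervals in both libraries. It was at 1.04 FPKM in control nerve and 1.32 FPKM in Zeb2 cKO nerve, 1.28-fold higher (counting interval 1.04 to 1.69), from about 147 and 133 reads. Of its 5 rows, 1 carries exon IIIb and 4 carry exon IIIc. The exon IIIb row was at 0.484 and 0.517 FPKM, and the exon IIIc rows summed to 0.551 and 0.808 FPKM. The exon IIIb row thus made up 46.7% of Fgfr3 in control nerve and 39.0% in Zeb2 cKO nerve, from about 69 and 50 reads. It also has an exon of 54 bases that 1 exon IIIc row lacks. It lacks an exon of 206 bases that the other exon IIIc rows have. Its share therefore does not rest on exon IIIb alone. Within the exon IIIc rows nearly all of the value sat in a different row in each library. That assignment is left out of any comparison, since about 78 and 83 reads were divided among 4 similar rows.

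Fgfrl1, the receptor-like protein without a kinase domain (chromosome 5, 109123248 to 109135969), was the second most abundant receptor of the set. It was at 14.7 FPKM in control nerve and 17.8 FPKM in Zeb2 cKO nerve, 1.21-fold higher (counting interval 1.13 to 1.33). Its longer row was at 10.9 and 15.0 FPKM. The row that lacks an inner exon of 273 bases was at 3.81 and 2.78 FPKM, 26.0% and 15.6% of the gene. The 2 rows thus differed in opposite directions while their sum stayed within 2-fold.

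**Figure D3:**
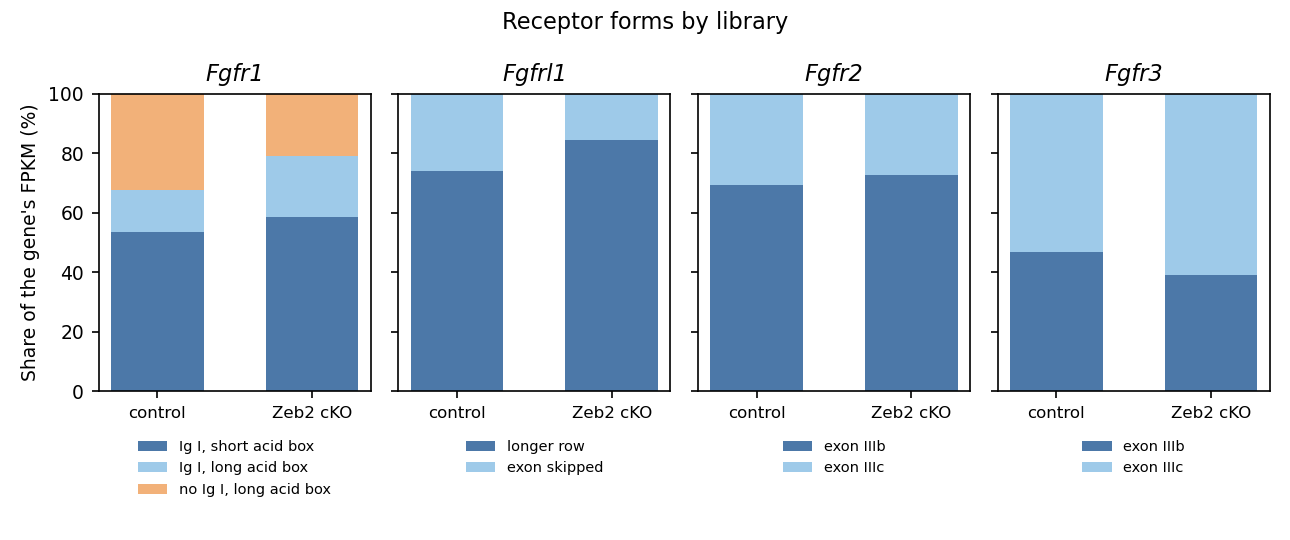
Share of each receptor gene's FPKM, in percent, taken by its forms in the control and the Zeb2 cKO library: the 3 rows of Fgfr1, the 2 rows of Fgfrl1, and the exon IIIb and IIIc forms of Fgfr2 and Fgfr3. The Fgfr1 form without the Ig I exon takes 32.5% in control nerve and 21.0% in Zeb2 cKO nerve. The Fgfr2 row with exon IIIb, which differs from the other row in further exons, takes 69.4% and 72.6%.

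**Figure D4:**
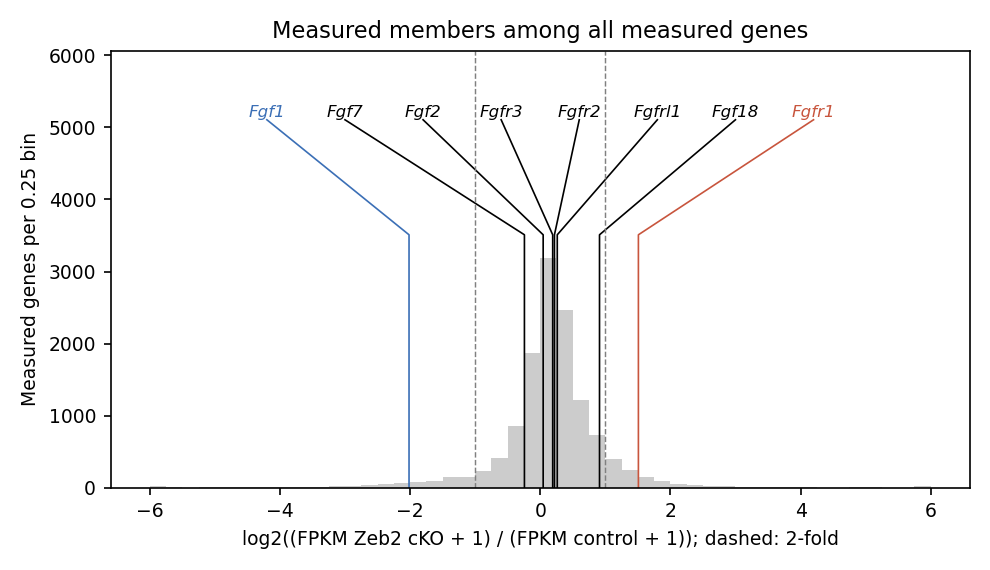
Number of measured genes in bins of the log2 ratio (grey columns), with lines at the 8 measured Fgf ligands and receptors and dashed lines at 2-fold. Fgf1, at -2.02, and Fgfr1, at 1.51, lie outside the dashed lines, and the other 6 lie between them.

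Other genes of the pathway were grouped into 7 lists of 82 genes by textbook role, and all 82 were found in the tables. Among the 12 other secreted ligands, 0 were measured. Their sum was 2.96 FPKM in control nerve and 1.07 FPKM in Zeb2 cKO nerve. Most of the control sum was Fgf4, an embryonic ligand, at 1.76 FPKM with about 190 reads, against 0.0436 FPKM with about 3 reads in Zeb2 cKO nerve, 40.4-fold lower (counting interval 14.5 to 211). Fgf6, a ligand of skeletal muscle, was at 0.206 FPKM in control nerve and was listed at 0 in Zeb2 cKO nerve, from about 9 and 0 reads. Fgf16 differed in the other direction, at 0.0853 and 0.476 FPKM from about 9 and 35 reads, 5.58-fold higher (counting interval 2.69 to 13.5).

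Among Fgfr4, the Klotho coreceptors, Fgf-binding proteins and Flrt proteins, 4 of 8 were measured, with 2 higher and 1 lower (all measured genes: 8.59% and 6.25%). Fgfr4, a receptor found in muscle precursors and liver, was at 1.94 FPKM in control nerve and 0.176 FPKM in Zeb2 cKO nerve, 11.0-fold lower (counting interval 6.51 to 21.7). It passed the filter only through its control value. Muscle precursor markers were lower too, summing to 15.6 and 1.73 FPKM, with 3 of 3 measured members lower and 2 below the filter, and mature muscle markers were lower as given above. Their part in the Fgfr4 value was not tested. Flrt2 and Flrt3, transmembrane proteins that interact with Fgf receptors, were 2.73-fold and 3.21-fold higher, at 8.37 and 9.09 FPKM in Zeb2 cKO nerve.

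The intracellular Fgf homologous factors bind sodium channels and do not act through Fgf receptors. All 4 were measured, with 2 higher and 0 lower, a small list beside the 8.59% and 6.25% of all measured genes. The 2 higher genes, Fgf12 and Fgf14, were below 1 FPKM in control nerve. They passed the filter only through their Zeb2 cKO values, so the count is not read as a result about the list. Fgf12 was at 0.462 FPKM in control nerve and 4.82 FPKM in Zeb2 cKO nerve, 10.4-fold higher (counting interval 7.80 to 14.4). Fgf14 was at 0.320 and 3.34 FPKM, 10.5-fold higher (counting interval 7.15 to 15.4). Fgf11 and Fgf13 lay within 2-fold, with log2 ratios of -0.38 and 0.0049. Neuronal markers summed to 44.4 and 41.9 FPKM with 0 of 6 members 2-fold apart.

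In the list of receptor adaptors and the Ras-ERK cascade, 21 members were measured, of which 1 was higher and 1 was lower, 2 of 21 beside 14.8% of all measured genes in either direction. The median log2 ratio was -0.0055, beside 0.18 over all. Frs2, the adaptor that docks on Fgf receptors, was at 9.14 and 10.2 FPKM. Plcg1, the phospholipase that binds activated receptors directly, was at 7.64 FPKM in control nerve and 17.6 FPKM in Zeb2 cKO nerve, 2.31-fold higher, and fell short of 2-fold with the median gene rescaled (log2 ratio 0.94).

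Feedback inhibitors and target genes of the pathway differed mainly in the higher direction. Among 13 measured, 8 were 2-fold or more higher and 0 lower, beside 8.59% and 6.25% of all measured genes, and the median log2 ratio was 1.06. Etv4 and Etv1, transcription factors induced by Fgf signalling, were 4.41-fold and 3.19-fold higher. Spred3 was 4.57-fold higher, Dusp5, an ERK phosphatase, 2.95-fold, and Spry1, a Sprouty inhibitor, 2.46-fold. Dusp6, a second ERK phosphatase, was at 23.1 FPKM in control nerve and 51.2 FPKM in Zeb2 cKO nerve, 2.22-fold higher. Dusp4 of the same list differed in the other direction, within 2-fold. It was at 9.74 and 6.23 FPKM, 1.56-fold lower (counting interval 1.38 to 1.77). Spry2 and Spred1 were 2.20-fold and 2.10-fold higher. After rescaling to the median gene, 4 of these 8 remained 2-fold higher, namely Spry1, Spred3, Etv1 and Etv4. These genes answer to other receptor tyrosine kinases as well, and Etv1 also stands in the fibroblast list, whose sum was higher in the same library.

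Enzymes that make and edit heparan sulfate, the cofactor of Fgf binding, held several higher genes. Among 14 measured, 6 were 2-fold or more higher and 0 lower, beside the same 8.59% and 6.25% of all measured genes. Their median log2 ratio was 0.80, and all 6 remained 2-fold higher after rescaling. Sulf1, an extracellular sulfatase that removes sulfate groups from heparan sulfate chains, was at 6.02 FPKM in control nerve and 43.7 FPKM in Zeb2 cKO nerve, 7.27-fold higher (counting interval 6.78 to 7.78). Sulf2, its relative, was 3.03-fold higher. The sulfotransferases Hs3st3b1, Hs3st3a1 and Hs3st1 were 16.0-fold, 8.76-fold and 4.83-fold higher, the former 2 from 0.141 and 0.252 FPKM in control nerve. Hs3st3b1 and Hs3st3a1 passed the filter only through their Zeb2 cKO values, so their place among the 6 higher genes follows in part from the filter. At a mean of at least 5 FPKM, 4 genes of the list were higher. Glce, the epimerase of the chain, was 3.51-fold higher. Ndst1, which begins sulfation, was at 34.9 and 34.3 FPKM.

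**Figure D5:**
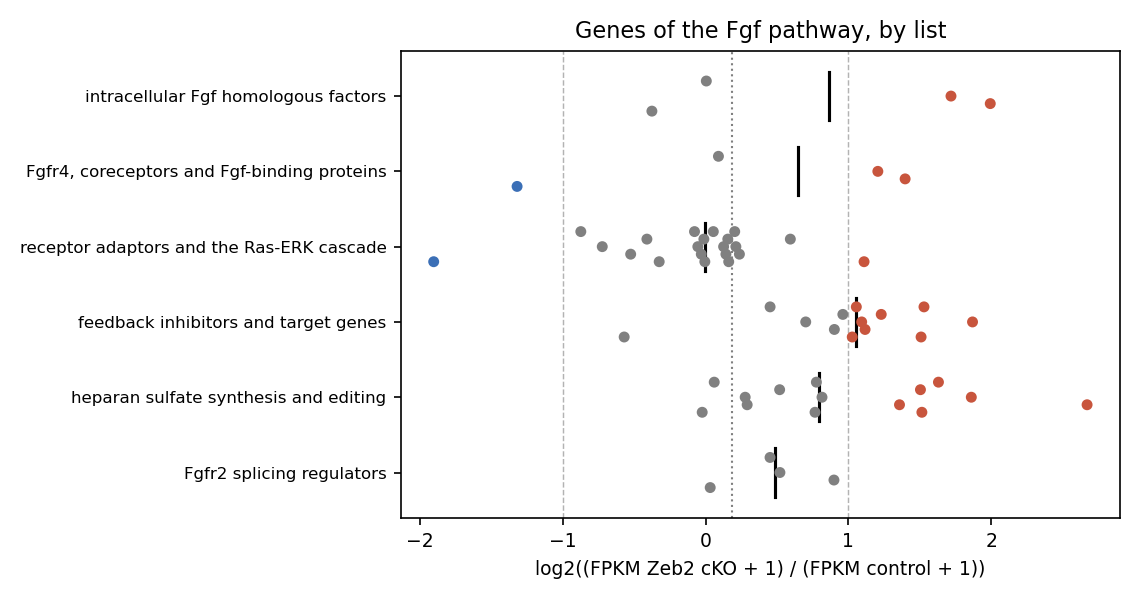
Log2 ratio of each measured gene of 6 pathway lists (points, red at 2-fold or more higher and blue at 2-fold or more lower in Zeb2 cKO nerve), with the list median as a black bar, the median of all measured genes as a dotted line at 0.18 and dashed lines at 2-fold. The list of other secreted ligands had no measured gene. The medians of the feedback and heparan sulfate lists are 1.06 and 0.80.

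Regulators of the choice between exons IIIb and IIIc had 4 of 6 members measured, and 0 were 2-fold apart, beside 14.8% of all measured genes. Rbfox2, an RNA-binding splicing factor, had the largest log2 ratio, 0.90, at 13.3 and 25.7 FPKM. Esrp1, the splicing factor of epithelial cells that favours exon IIIb, averaged below 1 FPKM. It was at 1.62 FPKM in control nerve with about 223 reads and at 0.0625 FPKM in Zeb2 cKO nerve with about 6 reads, 26.0-fold lower (counting interval 11.4 to 69.7). The Fgfr2 row with exon IIIb made up 69.4% and 72.6% of the gene in the same libraries. As said above, that share rests on other exons as well, so it does not measure the choice of exon IIIb alone. Among epithelial markers 2 of 6 were measured. Cdh1, E-cadherin, was lower, at 43.0 and 10.6 FPKM, while Krt8 lay within 2-fold, at 1.39 and 1.32 FPKM. The other 4 were below the filter in this list, among them Epcam at 0.0304 and 0.133 FPKM. The list summed to 44.9 and 12.8 FPKM, most of it Cdh1, so the lower sum followed that gene. Krt8 alone of the measured members did not share the lower level, and the other 4 had too few reads to be compared. Whether epithelial cells had a part in the Esrp1 value was not tested.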

How the data were processed

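RNA was measured in pooled sciatic nerves. CASAVA, TopHat, Cufflinks, Cuffdiff and the build mm9 are named in the submitters' processing notes, without versions. Per the file headers, the authors deposited Cufflinks FPKM values for RefSeq transcripts. The deposited coverage signal is the read depth per base, and its ratio to FPKM gave 1.87 in control nerve and 1.28 in Zeb2 cKO nerve, so that the control library was 1.47 times as deep.

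Of 28107 transcript rows, 295 without an OK status in both libraries were left out, and the rows of each symbol were summed. Reads were estimated as coverage times length over 52.6 bases, the median of 479 lowest values between 35 and 75 bases in genes of 1 transcript longer than 2000 bases. Exact Poisson and Clopper-Pearson intervals (95%) on rounded reads are approximate. FPKM tables keep no counts, so no count model was used. The code, run with Python 3.11.15, pandas 2.3.3 and SciPy 1.17.1, was tested on simulated data.

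The members and lists were chosen with earlier results of these data known. Named pathway genes are those 2-fold apart, or the largest ratio of a list with none. Some items are not reported here. Sox10, Fgf4, Fgf6, Fgf11, Fgf13, Fgf16, Frs2, Dusp4, Ndst1, Esrp1, Cdh1, Krt8, Epcam and the genes of the closing section were named after their values were seen. Of the 82 pathway genes, 81 matched by symbol and 1 through a RefSeq accession (table of assembly GRCm38.p6, whose coordinates were not used). Exon forms were identified by matching row accessions to GENCODE M21. Alternatives covered pseudocount, filter, scaling, row choice, status and threshold.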

Additional observations from a re-analysis of the deposited data

How the results depend on the processing

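Recounting under 11 alternatives left Fgf1 lower (log2 ratio -2.19 to -1.80) and Fgfr1 higher (1.33 to 1.61) wherever a ratio was computed. With a pseudocount of 0.1 or 0.5 FPKM, Fgf18 joined Fgfr1 and 2 members were higher, as with a 1.5-fold threshold, while 0 were higher at 3-fold. Among all measured genes, 1109 were higher and 806 lower. These counts became 477 and 529 with a pseudocount of 5 FPKM, 2537 and 1266 at 1.5-fold, and 401 and 457 at 3-fold, and 739 were higher at a mean of at least 5 FPKM. The 8 higher feedback and target genes became 4 with a pseudocount of 5 FPKM, 4 after rescaling to the median gene and 1 at 3-fold, and the 6 higher heparan sulfate genes became 3 at 3-fold. For the homologous factors, 0 were higher with a pseudocount of 5 FPKM or a mean of at least 5 FPKM. For Fgfr4, coreceptors and binding proteins, 0 were higher and 0 lower with a pseudocount of 5 FPKM and at 3-fold, and 0 were lower at a mean of at least 5 FPKM. In the adaptor and Ras-ERK list, 0 were higher with a pseudocount of 5 FPKM or at 3-fold, 0 higher and 2 lower after rescaling, 2 higher and 2 lower with the highest transcript row, and 2 higher and 3 lower at 1.5-fold. Without a filter 1 other ligand (Fgf4) and 1 splicing regulator (Esrp1) were lower, and 1 splicing regulator was higher with the highest transcript row or at 1.5-fold. The cause of changes other than those built into a threshold, filter or pseudocount was not tested. No paired analysis was possible because each group has only 1 table, which also means that leaving out a library was not run.

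Depth limits Fgf5, with about 36 and 6 reads, Fgf18 (41 and 76), Fgf10 (68 and 168), Fgf2 (114 and 81), and the rows of Fgfr2 and Fgfr3, with at most 226 reads per gene in either library. Fgf1 and Fgfr1 rest on at least 1615 reads in each library, so counting error is small there. The spread between animals is unknown for every value.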

Other observations

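Genes next to Fgf1 on chromosome 18 did not share its lower level. Arhgap26, the nearest measured gene, was at 4.63 FPKM in control nerve and 4.87 FPKM in Zeb2 cKO nerve. On the other side Spry4, itself a feedback inhibitor of Fgf signalling, was at 4.11 and 8.95 FPKM, and Ndfip1 beyond it at 167 and 258 FPKM. Nr3c1, the glucocorticoid receptor, was at 16.7 and 18.4 FPKM.

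Genes next to Fgfr1 on chromosome 8 were not uniformly higher either. Letm2, which begins 2776 bases beyond it in the tables, was at 1.36 and 1.91 FPKM, and Whsc1l1 was at 9.05 and 10.4 FPKM. On the other side Tacc1 was at 28.0 and 16.2 FPKM, while Plekha2 was at 3.71 and 11.7 FPKM, with a log2 ratio of 1.43 close to that of Fgfr1 (1.51).

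Fgfbp1, a secreted carrier that releases Fgfs from the matrix, stayed below a mean of 1 FPKM, at 0.160 FPKM in control nerve and 1.21 FPKM in Zeb2 cKO nerve. About 7 and 34 reads gave a plain ratio of 7.53 (counting interval 3.11 to 19.1). Kl, a coreceptor of endocrine Fgfs, was at 0.279 and 0.699 FPKM, a plain ratio of 2.50 (counting interval 1.75 to 3.61).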
